A study of Mus musculus with 79 samples.

Results

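PPARalpha and the enzymes and targets that serve fatty acid oxidation were followed in the livers, kidneys and lungs of mice that breathed 6% oxygen or synthetic air with 21% oxygen. The 8 genes Ppara, Cpt1a, Cpt2, Acadm, Acadl, Hadha, Ehhadh and Angptl4 were taken by symbol from the first column of each of the 5 deposited count tables, which list 15198 symbols between them. All 5 tables list 7 of the 8, and Hadha is not analysed here. Each sample is RNA of 1 tissue from 1 mouse, and 79 libraries make up 20 groups of 4, apart from 1 group of 3.

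All mice were 3-month-old C57BL/6 animals and stayed in a sealed cage under a constant flow of gas for 4 h, after which they were killed at once. In the light-dark regimen (LD), wild-type (WT) mice received 6% or 21% oxygen at zeitgeber time (ZT) 16-20, during darkness, or at ZT4-8, during light, and liver, kidney and lung came from each of 16 mice. In constant darkness (DD), Per1,2 double knockout (KO) mice and WT mice received 6% or 21% oxygen at circadian time (CT) 16-20 or CT4-8 after 2 days in the dark, and liver alone was taken. The labels do not say which part of either Per gene is deleted, so counts of those genes do not check the genotype. The KO group at CT16-20 under 6% oxygen has 3 libraries.

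PPARalpha is a nuclear receptor that binds fatty acids, pairs with the retinoid X receptor on DNA and drives the liver's genes for burning fat during fasting. Cpt1a and Cpt2 carry long-chain acyl groups into mitochondria, the acyl-CoA dehydrogenases Acadm and Acadl begin each round of beta-oxidation, and Ehhadh works in the peroxisome. Angptl4 is a secreted inhibitor of lipoprotein lipase that PPARalpha induces in liver. Cells also switch it on in low oxygen through hypoxia-inducible factors.

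In the GENCODE vM21 annotation of GRCm38 (mm10) Ppara lies at chr15:85734983-85802819 on the plus strand and Cpt1a at chr19:3322334-3385733 on the plus strand. The other 5 lie on minus strands, Cpt2 at chr4:107903981-107923610, Acadm at chr3:153922357-153944632, Acadl at chr1:66830839-66863277, Ehhadh at chr16:21761287-21787807 and Angptl4 at chr17:33773750-33781830. All 7 are protein-coding. The RefSeq promoter table (GRCm38.p6) held a window from 250 bases before to 50 after the start for 6 of the 7, and has no entry for Angptl4. The exon-free stretches before the start of Ppara, Cpt1a, Ehhadh and Acadm are shown 5′ to 3′ on the gene's strand. In LD liver Ppara fell most of the 7, and Cpt1a and Ehhadh were also called lower there at ZT4-8. Acadm is shown for the receptor half-site in its window. Starts are those of the RefSeq table, and for Ppara and Cpt1a they lie inside the wider GENCODE span, downstream of its first base. They span chr15:85735714-85735775, chr19:3323051-3323284, chr16:21787835-21788084 and chr3:153944644-153944893. Capitals mark AGGTCA, the half-site that nuclear receptors such as PPARalpha recognise, or GCGTG, a core that hypoxia-inducible factors recognise, each on either strand, so that they also appear as TGACCT and CACGC.
Ppara: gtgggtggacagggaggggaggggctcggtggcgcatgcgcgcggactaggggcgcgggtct
Cpt1a: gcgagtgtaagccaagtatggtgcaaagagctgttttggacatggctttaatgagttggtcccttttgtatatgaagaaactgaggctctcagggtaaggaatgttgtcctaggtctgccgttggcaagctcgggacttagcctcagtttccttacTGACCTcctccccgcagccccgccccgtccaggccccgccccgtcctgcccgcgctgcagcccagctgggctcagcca
Ehhadh: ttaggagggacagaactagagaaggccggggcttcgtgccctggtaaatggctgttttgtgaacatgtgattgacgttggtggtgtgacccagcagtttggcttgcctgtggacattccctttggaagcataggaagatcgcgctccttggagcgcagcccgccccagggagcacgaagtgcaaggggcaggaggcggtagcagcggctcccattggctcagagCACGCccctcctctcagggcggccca
Acadm: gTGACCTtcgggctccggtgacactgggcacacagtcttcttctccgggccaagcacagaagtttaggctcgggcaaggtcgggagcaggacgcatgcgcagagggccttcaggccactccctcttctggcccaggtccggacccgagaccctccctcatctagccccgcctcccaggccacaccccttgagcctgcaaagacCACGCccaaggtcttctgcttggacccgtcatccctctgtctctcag

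AGGTCA occurred in 2 of the 6 windows, 94 bases before the start of Cpt1a and 249 before that of Acadm, against 16.3% of the 32851 windows in the table. GCGTG occurred in 4 of 6, those of Ppara, Cpt2, Acadm and Ehhadh, against 32.4% of all windows. In Ppara it begins 110 bases before the start and at bases 28 and 44 after it, outside the stretch shown. A direct repeat of AGGTCA with 1 base between the copies, the arrangement that PPARalpha binds, was absent from the 6 with up to 2 letters different, and was present in 3.86% of all windows. CACGTG was absent from the 6 and present in 7.15% of all, and ACGTG was absent from the 6 and present in 19.6% of all. CACGTG holds ACGTG on both strands, so those 2 counts overlap. These are letters in a short window and not sites of binding.

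Libraries held 1.44 to 6.74 M counts (median 3.02 M, where M is 1e6). Levels are given as CPM, the counts of a gene per 1e6 counts of its library after TMM scaling within a table. They are not divided by length. They are used here to compare groups for 1 gene and not genes with each other. Summed hepatocyte markers stood at 54860 to 154200 CPM in liver, proximal tubule markers at 7187 to 9141 CPM in kidney and lung epithelial markers at 64160 to 96640 CPM in lung, each as its label says. In bulk tissue fewer cells of a type and less RNA per cell cannot be told apart. The WT liver library A at CT4-8 under 21% oxygen stood apart, with a median Spearman correlation of 0.866 with the other libraries of its table, where the next lowest was 0.922. Its macrophage markers summed to 1570 CPM and its hepatocyte markers to 55170 CPM.

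The main result was a lower level of these genes under 6% oxygen, in 20 of 70 comparisons of 1 gene in 1 setting, and none rose. The genes were chosen with earlier results of these data known, so they are not an independent set beside all genes. A gene is called here at an adjusted p under 0.05 by edgeR's quasi-likelihood test with Benjamini-Hochberg adjustment over all genes of a table. In LD liver at ZT16-20, 5 of the 7 genes fell and 0 rose, where 10.3% of 9451 genes tested fell and 9.98% rose. In LD liver at ZT4-8, 3 of 7 fell and 0 rose, where 4.21% of all genes fell and 5.43% rose. The median log2 fold change of the 7 was -0.47 at ZT16-20 and -0.35 at ZT4-8, against -0.00 and -0.01 over all genes. Those 2 settings thus hold 8 of the 20 calls. Over the 10 settings the count of rises was also 0 at an unadjusted p under 0.05 and 0 with DESeq2, and the count of falls was 32 and 22. Shares of all genes at an unadjusted p or with DESeq2 are not given here, so such counts stand without a background.

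In kidney 0 of the 7 genes fell or rose at ZT16-20, where 3.47% of 10878 genes fell and 3.44% rose. At an unadjusted p under 0.05 that count was 1, Ehhadh, and with DESeq2 it was 0. In kidney at ZT4-8 only Ppara fell and 0 rose, beside 2.49% and 2.79% of all genes. In lung 3 of 7 fell at ZT16-20 and 0 rose, beside 10.9% and 10.2% of 12150 genes. In lung at ZT4-8, 2 of 7 fell and 0 rose, beside 11.4% and 11.2%. The lung shares of all genes are the highest of the 10 settings, so the lung counts stand against a larger background than the liver counts.

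In DD liver 1 of 7 fell and 0 rose in KO mice at CT16-20, beside 2.11% and 2.39% of 8520 genes, and 3 of 7 fell and 0 rose in KO mice at CT4-8, beside 2.76% and 2.83%. In WT mice 1 of 7 fell and 0 rose at CT16-20, beside 4.55% and 5.28% of 8507 genes. In WT mice at CT4-8, 1 of 7 fell and 0 rose, beside 6.07% and 5.7%. By gene, Angptl4 fell in 6 of the 10 settings, Ppara in 4, Cpt1a, Cpt2 and Ehhadh in 3 each, Acadm in 1 and Acadl in none. The 7 members of every table passed the filter on low counts.

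**Figure D1:**
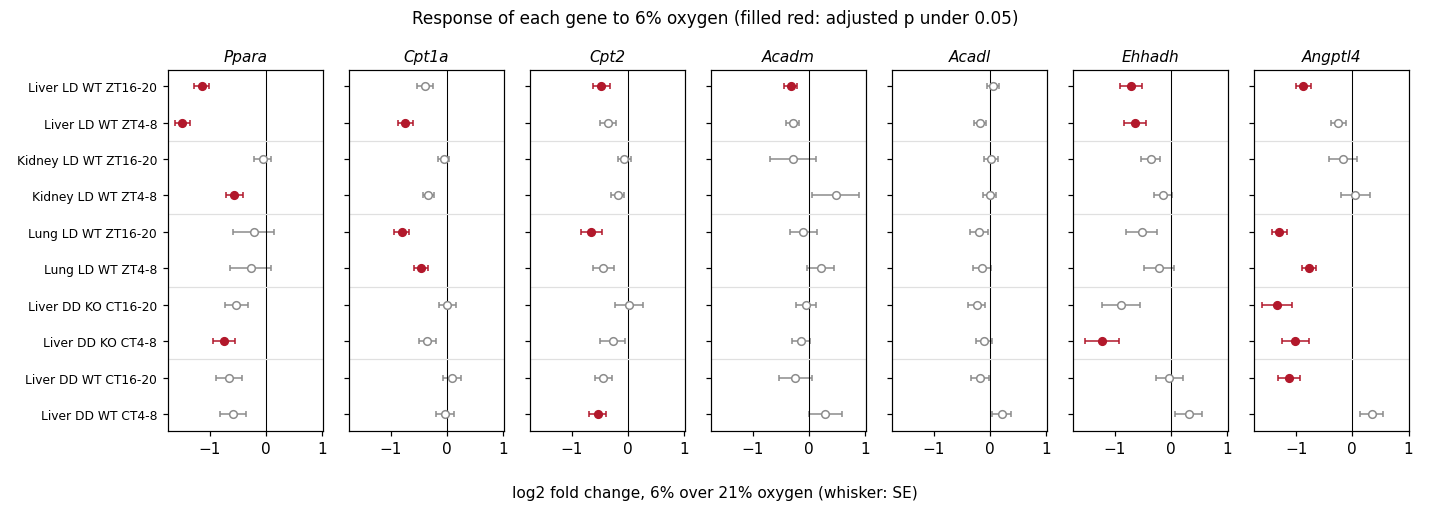
Log2 fold change of each gene at 6% over 21% oxygen (x axis) in 10 settings (rows), with the standard error as whisker and called results in filled red. Ppara lies left of 0 in all 10 rows and furthest left in the 2 LD liver rows, at -1.14 and -1.48, and no filled point lies right of 0.

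Ppara, the receptor itself, fell most in LD liver. At ZT16-20 it had 83.2, 98.8, 86.0 and 69.7 CPM under 6% oxygen, against 156, 178, 221 and 189 CPM under 21%. At ZT4-8 it had 72.0, 69.6, 87.1 and 76.9 CPM under 6% oxygen, against 210, 237, 186 and 223 CPM under 21%. The 2 oxygen levels did not overlap at either time. The mean at 6% was 45.5% of that at 21% at ZT16-20 (log2 fold change -1.14 ± 0.13 SE, adjusted p = 3.1e-06) and 35.7% at ZT4-8 (-1.48 ± 0.13, adjusted p = 8.9e-08). Both calls held without any 1 library and under every alternative run, with values between -1.22 and -1.04 at ZT16-20 and between -1.56 and -1.43 at ZT4-8. Hepatocyte markers overlapped between the oxygen levels at both times, at 112300 to 142100 CPM under 6% and 107000 to 154200 CPM under 21% at ZT16-20. Heart and skeletal muscle markers (2 of 7 listed) did not overlap at ZT16-20 but lay near 0, at 1.86 to 2.72 CPM under 6% and 0 to 1.14 CPM under 21%.

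In DD liver the point estimates for Ppara lay nearer 0, and LD against DD was not tested. In KO mice at CT16-20 it had 131, 131 and 147 CPM under 6% oxygen, against 211, 219, 154 and 205 CPM under 21%, with no overlap but no call (-0.53 ± 0.21, adjusted p = 0.16). In KO mice at CT4-8 it had 125, 180, 94.3 and 81.4 CPM under 6% oxygen, against 215, 194, 195 and 202 CPM under 21%, again without overlap, and this difference was called (-0.74 ± 0.19, adjusted p = 0.023). Replicate B of that 6% group, at 180 CPM, was nearest the air libraries. The call at CT4-8 was lost without air replicate A (-0.72, adjusted p = 0.065) or D (-0.74, 0.053), without 6% replicate C (-0.64, 0.088) or D (-0.60, 0.068), and with only those 8 libraries fitted (-0.74, 0.067). In KO liver at CT16-20 hepatocyte markers did not overlap, at 54860 to 63400 CPM under 6% oxygen and 76200 to 104900 CPM under 21%, nor did endothelial markers (7 of 7 listed), at 212 to 232 CPM under 6% and 246 to 264 CPM under 21%. In KO liver at CT4-8 neutrophil markers (5 of 7 listed) did not overlap, at 14.7 to 74.4 CPM under 6% and 3.80 to 11.4 CPM under 21%, where up to 2 of the 5 were at 0 in a library. Library depth did not overlap in KO liver at either time. At CT4-8 libraries held 1.963 to 2.485 M counts under 6% oxygen and 1.591 to 1.911 M under 21%. At CT16-20 they held 2.796 to 3.768 M under 6% and 1.443 to 2.021 M under 21%. The part of these markers and of depth in the differences was not tested.

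In WT mice at CT16-20 Ppara had 99.4, 134, 116 and 97.4 CPM under 6% oxygen, against 153, 186, 211 and 150 CPM under 21%. These groups did not overlap, and the difference was not called (-0.65 ± 0.23, adjusted p = 0.08). It was called with the replicate letter as a block (-0.65, adjusted p = 0.042) and with only those 8 libraries fitted (-0.66, 0.0057). In WT mice at CT4-8 Ppara had 90.5, 130, 112 and 136 CPM under 6% oxygen, against 79.1, 204, 219 and 199 CPM under 21%. The low air value is that of library A, which stood apart and also entered the standard error at CT16-20. The groups overlapped through that library. With it the log2 fold change was -0.59 ± 0.23 (adjusted p = 0.1) and without it -0.81 ± 0.15 (adjusted p = 0.00051).

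Outside liver Ppara was lower in kidney under 6% oxygen at ZT4-8 alone. At ZT16-20 kidney had 92.3, 83.9, 81.6 and 69.6 CPM under 6% oxygen, against 83.3, 85.4, 81.2 and 90.8 CPM under 21%, and the groups overlapped (-0.06 ± 0.15, 95% interval -0.36 to 0.25). At ZT4-8 kidney had 99.2, 126, 81.5 and 71.7 CPM under 6% oxygen, against 153, 124, 164 and 116 CPM under 21%. The groups overlapped by 1 library, and the fall was called (-0.56 ± 0.15, adjusted p = 0.034). Erythroid markers (2 of 6 listed) did not overlap there, at 10.1 to 25.3 CPM under 6% and 29.9 to 53.4 CPM under 21%, and their part was not tested. It was not called without air replicate A (-0.51, 0.081) or C (-0.47, 0.059), without 6% replicate A (-0.58, 0.067), C (-0.50, 0.12) or D (-0.45, 0.13), or with only those 8 libraries fitted (-0.56, 0.15).

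Ppara was near the floor in lung. It had 3.02 to 7.58 CPM under 6% oxygen and 2.36 to 7.5 CPM under 21% at ZT16-20, and 1.39 to 6.67 CPM under 6% and 4.12 to 5.95 CPM under 21% at ZT4-8. These are 4 to 28 reads a library, and the intervals of the log2 fold change, -0.92 to 0.49 at ZT16-20 and -0.99 to 0.44 at ZT4-8, span differences the size of the kidney one. Under 21% oxygen the order of means was LD liver at 214 CPM (ZT4-8) and 186 CPM (ZT16-20), kidney at 139 CPM (ZT4-8) and 85.2 CPM (ZT16-20) and lung at 5.56 CPM (ZT16-20) and 5.00 CPM (ZT4-8). The tables were scaled separately, so this order is across tables, and the liver and lung pairs overlap within each tissue.

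**Figure D2:**
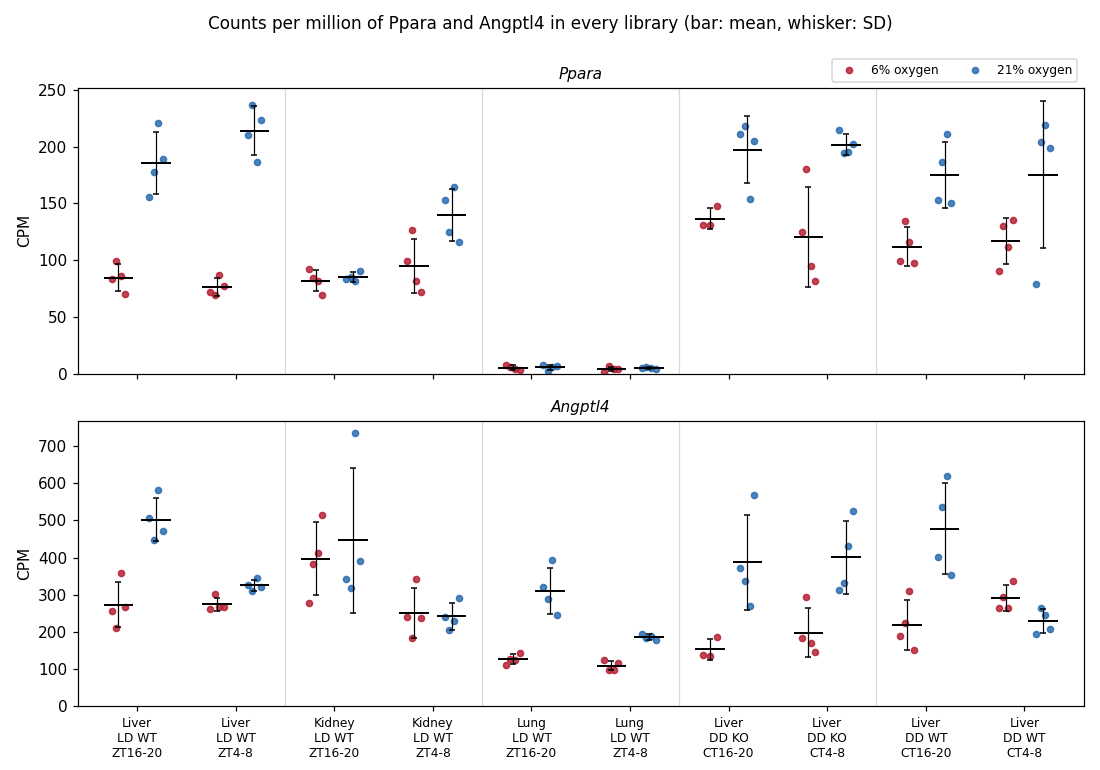
CPM of Ppara (top) and Angptl4 (bottom) in every library, with 6% oxygen in red left of 21% in blue for each setting on the x axis, bars at the mean and whiskers at 1 SD. Ppara lies between 69.6 and 98.8 CPM under 6% oxygen in LD liver, below every LD liver air library, and the single low air point in DD WT liver at CT4-8 is library A at 79.1 CPM.

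Cpt1a, the liver form of the enzyme that commits long-chain fatty acids to the mitochondrion and a PPARalpha target, fell in LD liver and in lung. At ZT16-20 LD liver had 163, 191, 185 and 184 CPM under 6% oxygen, against 228, 206, 253 and 258 CPM under 21%, without overlap but not called (-0.39 ± 0.14, adjusted p = 0.052). That difference was called without air replicate B (-0.45, 0.048), with DESeq2 (-0.38, 0.049) and with only those 8 libraries fitted (-0.38, 0.038). At ZT4-8 it had 204, 228, 176 and 196 CPM under 6% oxygen, against 362, 401, 237 and 341 CPM under 21%. The groups did not overlap, the mean at 6% was 60.0% of that at 21% (-0.74 ± 0.14, adjusted p = 0.00092), and the call held under every alternative run (-0.87 to -0.64).

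In lung at ZT16-20 Cpt1a had 65.5, 64.7, 60.5 and 68.5 CPM under 6% oxygen, against 94.3, 93.3, 125 and 138 CPM under 21%. There was no overlap (-0.80 ± 0.13, adjusted p = 9.1e-05), and every alternative kept the call. At ZT4-8 lung had 87.6, 88.0, 103 and 75.3 CPM under 6% oxygen, against 124, 102, 132 and 126 CPM under 21%, and the groups touched at 1 library (-0.46 ± 0.13, adjusted p = 0.012). This call was lost without 6% replicate D (-0.39, 0.059). Heart and skeletal muscle markers, which also come with tissue beside the lung, summed to 919 to 2861 CPM in the air lungs and 708 to 1987 CPM in the 6% lungs. Without the 3 air libraries with the highest sums, 2391, 2774 and 2861 CPM, Cpt1a was lower by -0.68 at ZT16-20 (0.00067) and -0.49 at ZT4-8 (0.02). In lung at ZT16-20 neutrophil markers (6 of 7 listed) did not overlap, at 245 to 451 CPM under 6% and 61.3 to 138 CPM under 21%, nor did hepatocyte markers (5 of 7), at 3.36 to 21.3 CPM under 6% and 22.6 to 40.5 CPM under 21%. At ZT4-8 lymphocyte markers (6 of 7) did not overlap, at 133 to 147 CPM under 6% and 103 to 132 CPM under 21%. Their part in the lung calls of Cpt1a, Cpt2 and Angptl4 was not tested.

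Cpt1a was not called in kidney or in DD liver. Kidney had 301 to 361 CPM under 6% oxygen and 323 to 356 CPM under 21% at ZT16-20, with overlap (-0.06 ± 0.10, 95% interval -0.26 to 0.15). At ZT4-8 kidney had 365, 417, 336 and 332 CPM under 6% oxygen, against 415, 489, 463 and 451 CPM under 21%, overlapping at 1 library (-0.33 ± 0.10, adjusted p = 0.072). Without 6% replicate B (-0.40, 0.032) and with DESeq2 (-0.33, 0.02) that difference was called. In KO liver the log2 fold change was 0.01 ± 0.16 at CT16-20 and -0.35 ± 0.15 at CT4-8, and in WT DD liver 0.09 ± 0.16 and -0.03 ± 0.16. The WT groups in DD overlapped at both times, at 165 to 226 CPM under 6% and 157 to 222 CPM under 21% at CT16-20.

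Cpt2, which rebuilds acyl-CoA on the inner side of the inner mitochondrial membrane, fell in 3 settings, 1 in each of LD liver, lung and WT DD liver. At ZT16-20 it had in LD liver 186, 250, 200 and 171 CPM under 6% oxygen, against 218, 265, 354 and 283 CPM under 21%, with overlap (-0.47 ± 0.15, adjusted p = 0.025). The call was lost without air replicate C (-0.34, 0.1) or D (-0.47, 0.051), without 6% replicate A (-0.43, 0.073), C (-0.47, 0.055) or D (-0.40, 0.085), and with only those 8 libraries fitted (-0.46, 0.051). At ZT4-8 it had 176 to 227 CPM under 6% and 221 to 269 CPM under 21% (-0.35 ± 0.15, adjusted p = 0.14). In WT DD liver at CT4-8 it had 128, 125, 138 and 137 CPM under 6% oxygen, against 254, 166, 155 and 195 CPM under 21%, without overlap (-0.54 ± 0.15, adjusted p = 0.026). Here the air library A, which stood apart, was the highest. Without it Cpt2 was -0.37 ± 0.13 (adjusted p = 0.057), and the call was also lost without air replicate D (-0.53, 0.053), 6% replicate A (-0.52, 0.065), B (-0.51, 0.073), C (-0.56, 0.057) or D (-0.55, 0.059).

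In lung at ZT16-20 Cpt2 had 53.7, 59.0, 33.9 and 37.8 CPM under 6% oxygen, against 98.3, 54.9, 65.5 and 69.2 CPM under 21%, with overlap (-0.66 ± 0.18, adjusted p = 0.013). The highest air library, replicate A, also had the highest summed adipocyte markers of its group, 2506 CPM against 151 to 516 CPM in the other 3. Without it Cpt2 was -0.45 ± 0.18 (adjusted p = 0.08), without 6% replicate C -0.53 (0.054) and without 6% replicate D -0.57 (0.053). At ZT4-8 lung had 32.5 to 44.9 CPM under 6% and 44.3 to 60.4 CPM under 21% (-0.44 ± 0.19, adjusted p = 0.093), which was called with only those 8 libraries fitted (-0.44, 0.026). In kidney Cpt2 lay between 266 and 363 CPM under 6% oxygen and between 331 and 445 CPM under 21%, and neither time was called. In WT DD liver at CT16-20, 129 to 144 CPM under 6% and 154 to 220 CPM under 21% did not overlap (-0.44 ± 0.15, adjusted p = 0.076), and this was called with only those 8 libraries fitted (-0.45, 0.027).

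**Figure D3:**
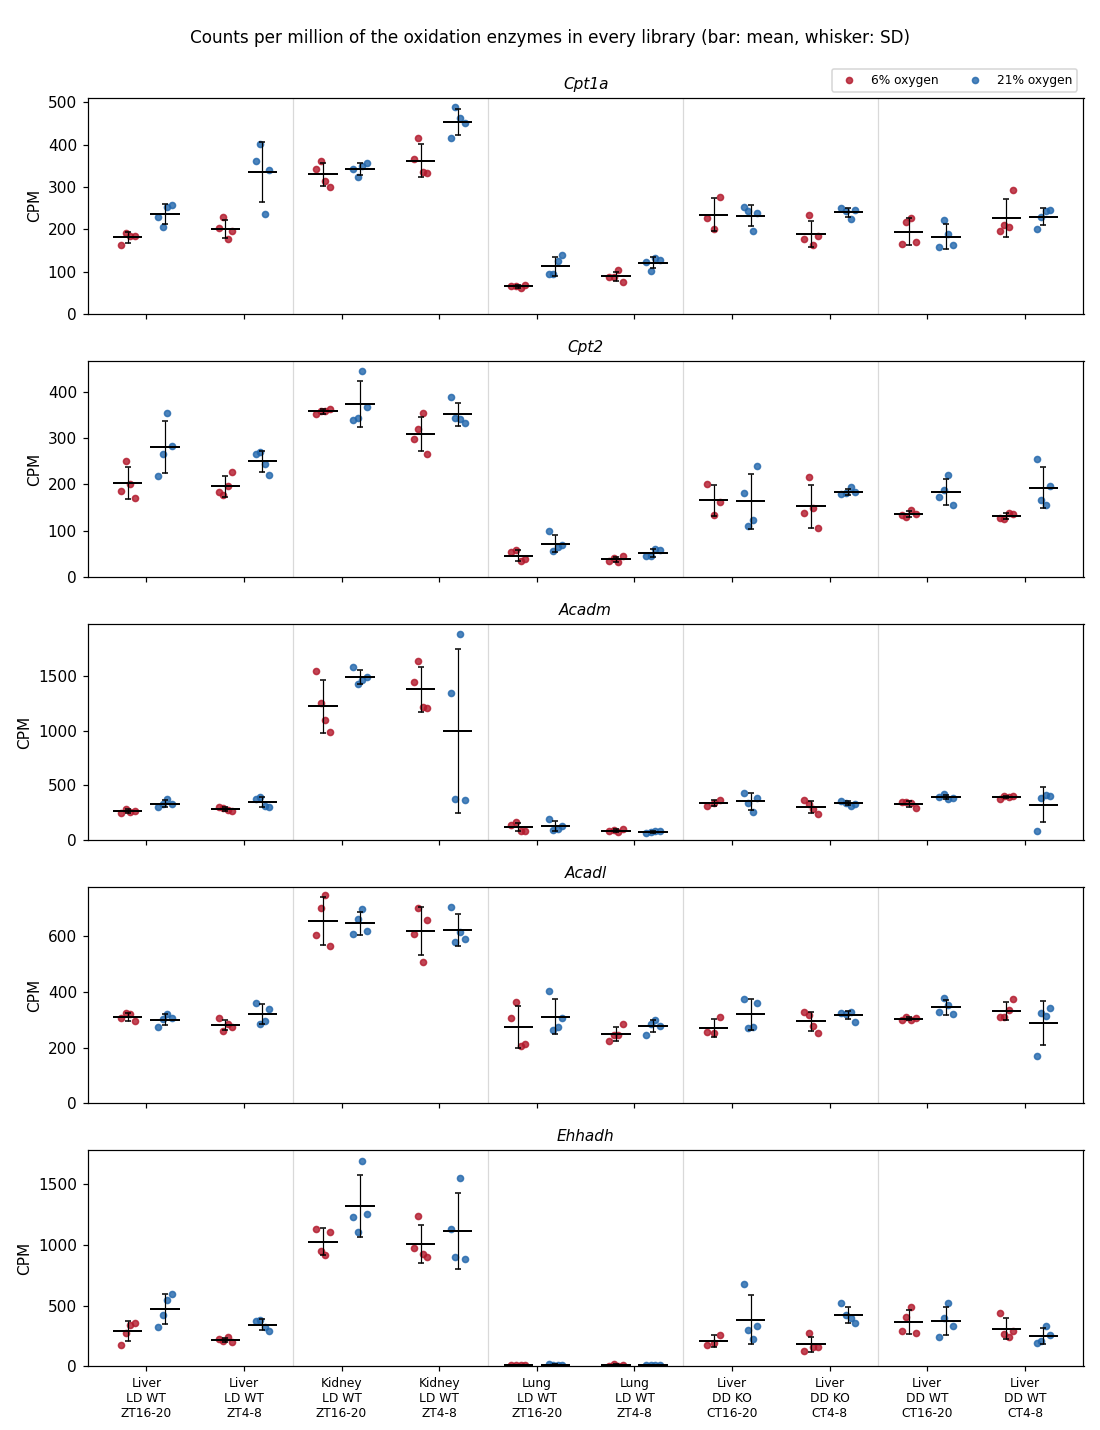
CPM of Cpt1a, Cpt2, Acadm, Acadl and Ehhadh (one panel each, top to bottom) in every library, with 6% oxygen in red left of 21% in blue for each setting, bars at the mean and whiskers at 1 SD. In kidney at ZT4-8 Acadm splits the air libraries into 1345 and 1884 CPM and 380 and 368 CPM, and Ehhadh in lung stays at or under 20.4 CPM.

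Acadm and Acadl, the medium- and long-chain acyl-CoA dehydrogenases, were called in 1 of their 20 comparisons. Acadm in LD liver had 250, 287, 256 and 268 CPM under 6% oxygen at ZT16-20, against 298, 330, 380 and 326 CPM under 21%. The groups did not overlap and the small fall was called (-0.33 ± 0.12, adjusted p = 0.047). It was lost in 10 of 13 alternatives, among them the replicate block (-0.33, 0.061), RLE scaling (-0.32, 0.052), no filter on low counts (-0.31, 0.07), only those 8 libraries (-0.32, 0.066), and the fits without air replicate B (-0.33, 0.084), C (-0.26, 0.14) or D (-0.34, 0.072) or 6% replicate A (-0.29, 0.12), C (-0.31, 0.11) or D (-0.33, 0.082). At ZT4-8 the groups did not overlap either, at 298, 294, 272 and 265 CPM under 6% and 371, 394, 312 and 301 CPM under 21% (-0.29 ± 0.12, adjusted p = 0.13).

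In kidney Acadm had 1211 to 1639 CPM under 6% oxygen at ZT4-8, against 1345, 380, 1884 and 368 CPM in air replicates A to D. Replicates B and D stood far below the other 2 air libraries, and their median correlations with the kidney libraries were 0.950 and 0.948, at the low end of a range up to 0.966. With all libraries the log2 fold change was 0.47 ± 0.42, and without those 2 it was -0.23 ± 0.17. In DD WT liver at CT4-8 air library A had 85.1 CPM of Acadm, against 388, 415 and 403 CPM in the other air libraries and 378 to 404 CPM under 6% oxygen, and without it the difference was -0.01 ± 0.11. At CT16-20 Acadm had 295 to 352 CPM under 6% and 379 to 422 CPM under 21%, without overlap and not called (-0.25 ± 0.29, adjusted p = 0.68). The groups of a table share 1 estimate of spread, so library A of CT4-8 also entered that standard error. Acadm was not called in KO liver or lung, where the groups overlapped at each time.

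Acadl was called in 0 of the 10 settings by edgeR's test, also at an unadjusted p under 0.05 and with DESeq2. Its log2 fold changes lay between -0.24 and 0.20, and it had 171 to 378 CPM in liver, 506 to 748 CPM in kidney and 207 to 404 CPM in lung. In LD liver at ZT16-20 it had 294 to 323 CPM under 6% oxygen and 274 to 320 CPM under 21% (0.05 ± 0.11, 95% interval -0.17 to 0.26), an interval that excludes a fall of the size seen in Ppara. The only groups without overlap were those of WT DD liver at CT16-20, at 299 to 311 CPM under 6% and 320 to 378 CPM under 21% (-0.18 ± 0.17, adjusted p = 0.57). Air library A of CT4-8, at 171 CPM, entered that standard error too.

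Ehhadh, the bifunctional enzyme of peroxisomal beta-oxidation and a PPARalpha target, fell in LD liver and in KO liver. LD liver at ZT16-20 had 177, 278, 342 and 356 CPM under 6% oxygen, against 320, 427, 548 and 595 CPM under 21%, with overlap (-0.71 ± 0.19, adjusted p = 0.014). Without air replicate D it was -0.58 (0.05, no longer called) and with only those 8 libraries -0.70 (0.055). At ZT4-8 it had 224, 211, 240 and 196 CPM under 6% oxygen, against 371, 383, 326 and 287 CPM under 21%, without overlap (-0.65 ± 0.19, adjusted p = 0.038). This call was lost without air replicate A (-0.61, 0.1), B (-0.59, 0.11) or C (-0.67, 0.06) and without 6% replicate A (-0.67, 0.073), B (-0.64, 0.08), C (-0.70, 0.059) or D (-0.61, 0.11).

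In KO liver at CT16-20 Ehhadh had 174, 188 and 261 CPM under 6% oxygen, against 682, 300, 228 and 332 CPM under 21%, with overlap and no call (-0.89 ± 0.33, adjusted p = 0.15). In KO liver at CT4-8 it had 128, 273, 155 and 163 CPM under 6% oxygen, against 519, 419, 400 and 357 CPM under 21%. No libraries overlapped, and the mean under 6% was 42.4% of that under 21% (-1.24 ± 0.31, adjusted p = 0.026). Neutrophil markers (14.7 to 74.4 CPM under 6%, 3.80 to 11.4 CPM under 21%) and library depth (given with Ppara) did not overlap there either, and their part was not tested. The call was lost without air replicate A (-1.13, 0.075), B (-1.24, 0.057) or C (-1.26, 0.059) or 6% replicate A (-1.10, 0.073), C (-1.17, 0.077) or D (-1.19, 0.074). In WT DD liver it was not called, with 271 to 488 CPM under 6% and 244 to 519 CPM under 21% at CT16-20 (-0.03 ± 0.24) and 243 to 436 CPM under 6% and 191 to 334 CPM under 21% at CT4-8 (0.31 ± 0.24). In kidney it stood at 886 to 1696 CPM and in lung at 6.08 to 20.4 CPM, with no call in either.

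Angptl4, the lipase inhibitor, fell in the most settings, 6 of 10, and in both lung settings. In LD liver at ZT16-20 it had 256, 212, 357 and 268 CPM under 6% oxygen, against 506, 447, 582 and 472 CPM under 21%. The groups did not overlap and the mean at 6% was 54.5% of that at 21% (-0.88 ± 0.13, adjusted p = 8e-05). At ZT4-8 it had 262, 301, 268 and 266 CPM under 6% oxygen, against 327, 309, 345 and 320 CPM under 21%, a smaller gap without overlap and not called (-0.25 ± 0.13, adjusted p = 0.28).

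In lung at ZT16-20 Angptl4 had 111, 128, 124 and 144 CPM under 6% oxygen, against 320, 288, 392 and 246 CPM under 21%. The groups did not overlap and the mean at 6% was 40.7% of that at 21% (-1.30 ± 0.13, adjusted p = 5.8e-08). At ZT4-8 lung had 123, 98.5, 98.1 and 118 CPM under 6% oxygen, against 196, 184, 188 and 179 CPM under 21%, again without overlap (-0.77 ± 0.13, adjusted p = 8.1e-05). These 2 calls and that in LD liver at ZT16-20 held under every alternative run, and without the 3 air lungs rich in muscle markers they were -1.38 and -0.77. Fat cells make Angptl4, and adipocyte markers overlapped, at 282 to 1400 CPM under 6% and 151 to 2506 CPM under 21% at ZT16-20. As given with Cpt1a, neutrophil and hepatocyte markers did not overlap in lung at ZT16-20, nor did lymphocyte markers at ZT4-8. At the other time each of these overlapped.

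In DD liver Angptl4 fell in 3 of the 4 settings. In KO mice it had 138, 136 and 185 CPM under 6% oxygen at CT16-20, against 373, 338, 269 and 569 CPM under 21% (-1.34 ± 0.27, adjusted p = 0.0071). In KO mice at CT4-8 it had 183, 294, 170 and 146 CPM under 6% oxygen, against 312, 332, 431 and 526 CPM under 21% (-1.01 ± 0.24, adjusted p = 0.019). Neither pair of KO groups overlapped. Library depth, given with Ppara, did not overlap at either time, and its part was not tested. At CT4-8 neutrophil markers (14.7 to 74.4 CPM under 6%, 3.80 to 11.4 CPM under 21%), and at CT16-20 the hepatocyte and endothelial markers given with Ppara, did not overlap either, and their part was not tested. In WT mice at CT16-20 it had 188, 223, 311 and 151 CPM under 6% oxygen, against 400, 535, 620 and 354 CPM under 21%, without overlap (-1.13 ± 0.20, adjusted p = 0.00083), and every alternative kept that call. The 1 listed erythroid marker of 6 did not overlap there, at 200 to 208 CPM under 6% and 122 to 190 CPM under 21%, and its part was not tested. In WT mice at CT4-8 it had 264, 294, 265 and 338 CPM under 6% oxygen, against 194, 265, 246 and 209 CPM under 21%, a point estimate above 0 that was not called (0.35 ± 0.20, adjusted p = 0.29). The KO call at CT16-20 was lost without 6% replicate A (-1.27, 0.06) or B (-1.26, 0.053), and that at CT4-8 without air replicate C (-0.97, 0.053) or D (-0.85, 0.064) or 6% replicate A (-0.97, 0.055), C (-0.94, 0.065) or D (-0.89, 0.058).

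In kidney Angptl4 was not called. At ZT16-20 it had 277, 384, 411 and 515 CPM under 6% oxygen, against 343, 319, 736 and 390 CPM under 21% (-0.17 ± 0.25, 95% interval -0.67 to 0.32). At ZT4-8 it had 241, 183, 343 and 237 CPM under 6% oxygen, against 241, 206, 230 and 292 CPM under 21% (0.05 ± 0.25, 95% interval -0.44 to 0.55). The groups overlapped at both times, and both intervals exclude the lung response of the same time, though kidney against lung was not tested.

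The title of the series asks about time of day, so the response at the later time minus that at the earlier was fitted directly. In LD liver 0 of the 7 differences were called, where 2.06% of all genes were, in either direction. In kidney 0 of 7 were called (0.368% of all genes), in lung 0 of 7 (0.255%) and in KO DD liver 0 of 7 (0.0117%). At an unadjusted p under 0.05 these counts were 1 (Angptl4), 1 (Ppara), 1 (Angptl4) and 0, and with DESeq2 they were 0 each. In WT DD liver 1 of 7 was called (1.62% of all genes), that of Angptl4, whose response was -1.13 at CT16-20 and 0.35 at CT4-8 (difference -1.47 ± 0.29, adjusted p = 0.0094). This call held under every alternative run, with values between -1.69 and -1.34 and an adjusted p of up to 0.026. The same difference was -0.63 ± 0.19 in LD liver (adjusted p = 0.096) and -0.53 ± 0.18 in lung (adjusted p = 0.37), and the LD liver one was called without 6% replicate C of ZT16-20 (-0.79, 0.015).

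In air alone the 2 times also differed for some of these genes. In LD liver 2 of 7 differed (5.91% of all genes did, in either direction). Angptl4 rose to 502 CPM at ZT16-20, against 325 CPM at ZT4-8 (log2 difference 0.62 ± 0.13, adjusted p = 0.0068). Cpt1a fell to 236 CPM at ZT16-20, against 335 CPM at ZT4-8 (-0.50 ± 0.14, adjusted p = 0.033). The Angptl4 groups did not overlap, and those of Cpt1a overlapped through the ZT4-8 library at 237 CPM. Cpt1a lost its call with the replicate block (-0.48, 0.057), without ZT4-8 replicate A (-0.47, 0.095), B (-0.41, 0.12) or D (-0.50, 0.072) and without ZT16-20 replicate A (-0.49, 0.075) or B (-0.45, 0.11).

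In lung 1 of 7 differed between the times in air (0.979% of all genes did), Angptl4, at 311 CPM at ZT16-20 against 187 CPM at ZT4-8 (0.74 ± 0.13, adjusted p = 0.0024). In WT DD liver 1 of 7 differed (3.66%), again Angptl4, at 477 CPM at CT16-20 against 229 CPM at CT4-8 (1.06 ± 0.20, adjusted p = 0.0033). In KO DD liver 0 of 7 differed (0.0235%), also at an unadjusted p under 0.05 and with DESeq2, with Angptl4 at 387 CPM at CT16-20 against 400 CPM at CT4-8 (-0.05 ± 0.24). Angptl4 thus rose in air at the later time in LD liver, lung and WT DD liver, calls that held under every alternative run. In kidney it averaged 447 CPM at ZT16-20 and 242 CPM at ZT4-8, without overlap and not called (0.89 ± 0.25, adjusted p = 0.12), though called with DESeq2 (0.89, 0.028), and without ZT16-20 replicate C it was 0.54 (0.31). The difference between KO and WT in this change with time was not tested. In air lungs neutrophil markers (6 of 7) did not overlap, at 61.3 to 138 CPM at ZT16-20 and 326 to 558 CPM at ZT4-8. Nor did fibroblast and stellate markers (all 6), at 1968 to 2264 CPM at ZT16-20 and 1429 to 1707 CPM at ZT4-8. In WT DD air liver the 1 listed adipocyte marker did not overlap between the times. It had 2.89 to 8.20 CPM at CT16-20 and 16.25 to 36.9 CPM at CT4-8. The part of these markers was not tested. In kidney 1 of 7 differed (1.09%), Ppara, at 85.2 CPM at ZT16-20 against 139 CPM at ZT4-8 (-0.71 ± 0.15, adjusted p = 0.021), without overlap. It was not called without ZT16-20 replicate A (-0.70, 0.065), B (-0.71, 0.064), C (-0.69, 0.085) or D (-0.74, 0.051) or ZT4-8 replicate A (-0.65, 0.054). Lung epithelial markers (5 of 6) did not overlap in air kidneys either. They had 5.69 to 39.3 CPM at ZT16-20 and 2.55 to 3.40 CPM at ZT4-8, and their part was not tested.

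The KO response minus the WT response to 6% oxygen was fitted over both DD tables. Genotype coincides with the table, so a difference between tables and one between genotypes cannot be told apart. At CT16-20, 0 of 7 responses differed (0.0444% of 9011 genes did, in either direction), with Ppara at 0.11 ± 0.32 and Angptl4 at -0.22 ± 0.34, and that count was 0 at an unadjusted p under 0.05 and with DESeq2. At CT4-8, 2 of 7 differed (2.42%). The Angptl4 response was -1.01 in KO and 0.35 in WT mice (difference -1.37 ± 0.32, adjusted p = 0.018), and the Ehhadh response was -1.24 in KO and 0.31 in WT mice (difference -1.56 ± 0.41, adjusted p = 0.039). The call of Angptl4 held under every alternative run, with an adjusted p of up to 0.05 when rounded, which is its value without the WT air library A (-1.30).

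The genotype difference of Ehhadh was lost with the replicate block (-1.56, 0.058) and without WT air replicate A (-1.45, 0.1), B (-1.48, 0.071) or D (-1.57, 0.058), WT 6% replicate A (-1.34, 0.095) or D (-1.59, 0.058), KO air replicate A (-1.44, 0.1), B (-1.56, 0.063) or C (-1.58, 0.055) or KO 6% replicate A (-1.42, 0.092), C (-1.49, 0.072) or D (-1.51, 0.077). In air, 0 of 7 genes differed by genotype at CT16-20 (2% of all genes did; 1 of 7 at an unadjusted p under 0.05, Cpt1a, and 0 with DESeq2) and 1 of 7 at CT4-8 (4.51%). That 1 was Angptl4, at 400 CPM in KO and 229 CPM in WT mice (0.82 ± 0.23, adjusted p = 0.032), and the groups did not overlap. It was not called without WT replicate A (0.76, 0.1) or D (0.78, 0.083), without KO replicate C (0.78, 0.089) or D (0.66, 0.12), or with only those 8 libraries fitted (0.84, 0.071). At the same time Ppara was 202 CPM in KO and 175 CPM in WT air livers (0.21 ± 0.22).

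The liver response minus that of kidney or lung was fitted over the 48 LD libraries with the mouse as a block. Against kidney, 1 of 7 differed at ZT16-20 (3.23% of 10649 genes did, in either direction) and 1 of 7 at ZT4-8 (3.4%), Ppara each time. Its response in liver was lower than that in kidney by -1.06 ± 0.24 at ZT16-20 (adjusted p = 0.0063) and -0.90 ± 0.24 at ZT4-8 (adjusted p = 0.025). The first of these held under every alternative run (-1.13 to -0.94). The one at ZT4-8 was lost without air mouse B (-0.81, 0.11) or D (-0.79, 0.11), without 6% mouse A (-0.83, 0.062) or B (-0.72, 0.11), with DESeq2 (-0.88, 0.065) and without the mice of both kidney libraries with low Acadm (-0.59, 0.5).

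Against lung, 0 of 7 differed at ZT16-20 (7.47% of all genes did; 1 of 7 at an unadjusted p under 0.05, Ppara, and 0 with DESeq2) and 1 of 7 at ZT4-8 (7.63%), Ppara at -1.22 ± 0.35 (adjusted p = 0.023). At ZT16-20 the difference for Ppara was -0.94 ± 0.34 (adjusted p = 0.089). The call at ZT4-8 was lost without air mouse A (-1.20, 0.053) or D (-1.10, 0.065), without 6% mouse B (-0.86, 0.18) or D (-1.19, 0.067) and without the mice of the 3 air lungs rich in muscle markers (-1.41, 0.066), and it rests on the few reads of Ppara in lung. For Angptl4, liver minus kidney at ZT16-20 was -0.74 ± 0.22 (adjusted p = 0.054), which was called with DESeq2 (-0.73, 0.044) and without air mouse C (-0.94, 0.016), 6% mouse A (-0.88, 0.039) or 6% mouse C (-0.86, 0.042). For Acadm and Cpt1a the liver minus kidney difference at ZT4-8 was called only without air mouse C, at -1.49 (0.013) and -0.55 (0.049).

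Around these genes, 6 lists held 134 further genes of the pathway, chosen with earlier results of these data known. In LD liver 21 of the 115 tested rose and 18 fell at ZT16-20, and 9 rose and 15 fell at ZT4-8. Over all genes 9.98% rose and 10.3% fell at ZT16-20, and 5.43% rose and 4.21% fell at ZT4-8, and the list was not tested against them or against the 7 genes. The median log2 fold change of the 115 was 0.01 at ZT16-20 and -0.08 at ZT4-8, beside -0.00 and -0.01 over all genes. In kidney 2 of 115 rose and 1 fell at ZT16-20 (3.44% and 3.47% of all genes), and 3 rose and 0 fell at ZT4-8 (2.79% and 2.49%). In lung 5 of 105 rose and 11 fell at ZT16-20 (10.2% and 10.9% of all genes), and 4 rose and 5 fell at ZT4-8 (11.2% and 11.4%), so each lung share was below or near that of all genes. In KO DD liver 5 of 113 rose and 3 fell at CT16-20 (2.39% and 2.11% of all genes), and 4 rose and 7 fell at CT4-8 (2.83% and 2.76%). WT DD liver had 11 of 115 higher and 5 lower at CT16-20 (5.28% and 4.55%), and 14 rose and 14 fell at CT4-8 (5.7% and 6.07%).

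Among receptor partners and coregulators, 5 of 15 rose in LD liver at ZT16-20 and 1 fell (9.98% and 10.3% of all genes), and 4 of 15 rose at ZT4-8 and 0 fell (5.43% and 4.21%). Lpin1, a phosphatidate phosphatase that also coactivates PPARalpha, averaged 453 ± 93.3 CPM under 6% oxygen and 223 ± 81.6 CPM under 21% at ZT16-20 (SD, n = 4 each), a log2 fold change of 1.03 ± 0.22. Pparg, the fat-cell member of the PPAR family, rose by 1.15 ± 0.20 in LD liver at ZT16-20, by 1.23 ± 0.26 in KO liver at CT16-20 and by 0.91 ± 0.26 in WT DD liver at CT16-20. Ppard, the widely expressed member, rose by 1.16 ± 0.30 in kidney at ZT4-8, by 1.53 ± 0.29 in WT DD liver at CT4-8 and by 0.56 ± 0.16 and 0.47 ± 0.16 in lung at ZT16-20 and ZT4-8.

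Of the genes for uptake, activation and the carnitine shuttle, 3 of 18 rose and 5 fell in LD liver at ZT16-20 (9.98% and 10.3% of all genes), and 0 rose and 2 fell at ZT4-8 (5.43% and 4.21%). Crot, a peroxisomal carnitine acyltransferase, averaged 101 ± 7.25 CPM under 6% oxygen and 283 ± 55.8 CPM under 21% at ZT16-20 (-1.48 ± 0.20), and rose in kidney at ZT4-8 (0.79 ± 0.19). Slc22a5, the carnitine importer, fell by 1.07 ± 0.22 on the log2 scale in LD liver at ZT4-8, and Fabp1, the liver fatty acid binding protein, fell by 0.47 ± 0.13. Acsl3, an acyl-CoA synthetase, rose in LD liver at ZT16-20 (1.18 ± 0.21) and in WT DD liver at CT16-20 (1.20 ± 0.25).

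Of the other mitochondrial beta-oxidation genes, 1 of 18 rose and 2 fell in LD liver at ZT16-20 (9.98% and 10.3% of all genes), and 0 rose and 2 fell at ZT4-8 (5.43% and 4.21%). Etfdh and Etfa, which pass electrons from the acyl-CoA dehydrogenases to the respiratory chain, fell by 0.57 ± 0.15 and 0.43 ± 0.13 at ZT16-20, while Acads, the short-chain dehydrogenase, rose by 0.52 ± 0.16. Eci2, an enoyl-CoA isomerase, fell by 0.48 ± 0.13 at ZT4-8, and Acad11, an acyl-CoA dehydrogenase, fell by 0.45 ± 0.12. Of the 19 tested in lung or kidney, edgeR's test, the only one run on this list, called 0 at either time. In lung 10.2% of all genes rose and 10.9% fell at ZT16-20, and 11.2% and 11.4% at ZT4-8. In kidney the shares were 3.44% and 3.47% at ZT16-20, and 2.79% and 2.49% at ZT4-8. The lung 0 thus stands against a larger background than the kidney 0. At an unadjusted p under 0.05 that test gave 1 at ZT16-20 and 2 at ZT4-8 in lung, and 1 at ZT16-20 and 3 at ZT4-8 in kidney. Shares of all genes at that p are not given here.

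Of the peroxisomal and omega-oxidation genes, 2 of 28 rose and 5 fell in LD liver at ZT16-20 (9.98% and 10.3% of all genes), and 0 rose and 4 fell at ZT4-8 (5.43% and 4.21%). Cyp4a10 and Cyp4a14, omega-hydroxylases induced by PPARalpha, fell in WT DD liver at CT16-20 by 1.80 ± 0.33 and 2.17 ± 0.58. Cyp4a31 fell in LD liver at both times and in KO liver at CT16-20. Cyp4a32 rose in WT DD liver at CT4-8 (1.43 ± 0.41), so the Cyp4a genes did not all move 1 way. The Cyp4a and Acot genes are close paralogs whose reads may be split between copies, so their values are uncertain.

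Of the other PPARalpha targets, 10 of 31 rose and 4 fell in LD liver at ZT16-20 (9.98% and 10.3% of all genes), and 4 rose and 6 fell at ZT4-8 (5.43% and 4.21%). Hilpda, a lipid droplet protein that hypoxia-inducible factors also induce, rose in every liver setting, in lung at both times and in kidney at ZT4-8. In LD liver it averaged 464 ± 77.9 CPM under 6% oxygen and 11.7 ± 4.82 CPM under 21% at ZT16-20 (5.27 ± 0.32), and 491 ± 179 CPM under 6% and 11.1 ± 2.80 CPM under 21% at ZT4-8 (5.48 ± 0.33). In lung it averaged 645 ± 71.2 CPM under 6% and 261 ± 43.2 CPM under 21% at ZT16-20 (1.31 ± 0.14), where Angptl4 fell. Slc25a47, a mitochondrial carrier of hepatocytes, rose by 0.98 ± 0.15 and 1.02 ± 0.15 in LD liver at ZT16-20 and ZT4-8. Plin2, a lipid droplet coat protein, fell in KO liver at CT16-20 (-1.0 ± 0.25) and CT4-8 (-0.82 ± 0.23) and in WT DD liver at CT4-8 (-0.51 ± 0.14). The adjusted p-values of the named pathway genes lay under 0.05, and their calls were not rerun under the alternatives.

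**Figure D4:**
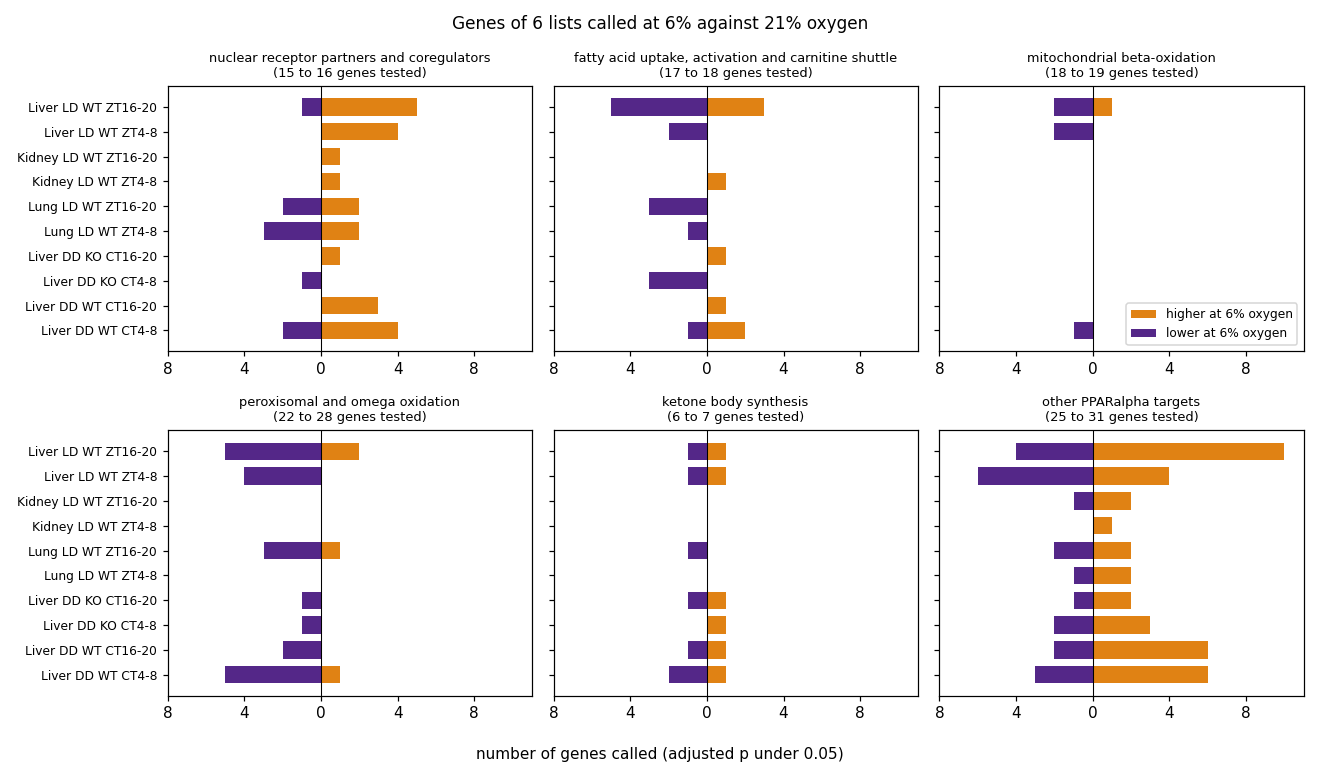
Number of genes called higher (orange, right of 0) or lower (purple, left of 0) at 6% against 21% oxygen in each of 6 pathway lists (panels) and 10 settings (rows). Among other PPARalpha targets the bars run to 10 higher and 4 lower in LD liver at ZT16-20, and mitochondrial beta-oxidation shows at most 2 lower and 1 higher in any row.

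Across the 47 liver libraries, centred within each table, the log2 levels most like those of Ppara among 5509 genes were those of Grpel2 (Pearson r = 0.86), Hsdl2 (0.85), Il15ra (0.85), 2810403A07Rik (0.83) and Ddx17 (0.83). Those most like Angptl4 were Slc25a42 (0.80), N4bp2l1 (0.79), Ppp1r10 (0.78), Pxmp4 (0.76) and G0s2 (0.75). Among the 21 pairs of the 7 genes the closest were Acadm with Acadl (0.80), Ppara with Cpt1a (0.67) and Ehhadh with Angptl4 (0.67), and the least alike were Cpt2 and Acadm (-0.02). These 47 include the WT air library A of CT4-8, which stood apart. Without it, over 46 libraries, Acadm with Acadl was 0.56, Cpt2 with Acadm 0.51, Ppara with Cpt1a 0.69 and Ehhadh with Angptl4 0.66, so both values with Acadm depend on that library, and the 10 genes named above lay between 0.75 and 0.88. The libraries share oxygen, time and table, so these values describe the same contrasts as above.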

How the data were processed

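Raw counts per gene, as the authors deposited them in 5 tables (LD liver, kidney and lung, DD liver of WT and of KO mice), were the only values used. Per the labels' protocols, RNA was extracted with TRI-reagent, cDNA amounts were evened by qPCR of actin B, and indexed samples were then pooled before a linear amplification (in-vitro transcription). Reads were handled with bcl2fastq, cutadapt, STAR and HTSeq on mm10, per the submitters' processing notes. Their versions, the annotation and the strand handling were not given in the sources used here, so overlapping antisense genes cannot be told apart. The tables list only genes whose highest count is at least 6.

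R 4.3.3 was used with edgeR 4.0.16, limma 3.58.1 and DESeq2 1.42.0. Genes were kept by filterByExpr (minimum count 10, minimum total 15), scaled by TMM and tested by edgeR's quasi-likelihood test with 1 coefficient per group, in 1 fit per table. Genotype and tissue were compared in joint fits over shared genes, the tissue fit with the mouse as a block, the replicate letter being taken to mark it. P-values were adjusted by Benjamini-Hochberg over all genes of a fit, with calls at an adjusted p under 0.05. CPM are TMM-scaled, and log2 levels use a prior count of 2. Simulated counts with known changes were used to test the scripts.

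The members and lists were chosen with earlier results of these data known. From each list, up to 2 genes that rose and 2 that fell by smallest p, with at least 10 CPM, are named per setting, and some genes this rule takes are not reported here. Alternatives were RLE scaling, no filter, DESeq2, only the libraries compared, the replicate letter as a block (without it in the tissue fit) and leaving out each library. Leaving out 2 kidney or 3 lung air libraries, or 1 liver library for correlations, was chosen after seeing the data. Same-letter libraries of different tissues barely deviated together (median correlation of deviations 0.0285, against -0.00868 for other letters). The mice are the series' biological replicates. Libraries held 1.44 to 6.74 M counts. The lowest counts of a member in any library, 4 for Ppara and 18 for Ehhadh, were in lung, and low counts limit precision.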

Additional observations from a re-analysis of the deposited data

Results flagged for a closer look

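Among 133 sets of values, each of 1 gene in 1 group of 4 libraries, 6 held a library far from its nearest neighbour for the range of its set. Chance gives about 1 in 20, and the 6 are no more than that share. Sets of different genes share libraries, so they are not independent. The WT liver library A at CT4-8 under 21% oxygen was the lowest of its group for Ppara at 79.1 CPM, for Acadm at 85.1 CPM and for Acadl at 171 CPM. The highest libraries set apart were replicate D of WT liver at CT4-8 under 6% oxygen for Cpt1a at 293 CPM, replicate B of LD liver at ZT4-8 under 6% oxygen for Angptl4 at 301 CPM, and replicate C of kidney at ZT16-20 under 21% oxygen for Angptl4 at 736 CPM.

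6 differences between responses passed their own test. In WT DD liver the Angptl4 response at CT16-20 lay below that at CT4-8 by -1.47. At CT4-8 the KO response lay below the WT response by -1.56 for Ehhadh and -1.37 for Angptl4. The Ppara response of liver lay below that of kidney by -1.06 at ZT16-20 and -0.90 at ZT4-8, and below that of lung by -1.22 at ZT4-8. All of these are log2 differences, and in the genotype pair the table and the genotype cannot be told apart.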

How the results depend on the processing

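Of 2905 refits of single-gene results, 2673 kept direction and side of the threshold, 99 lost a call, 20 gained one and 113 changed sign, of which 0 were called with either sign. Of 32 called results, 14 kept the call under every alternative run; of the 20 oxygen calls, 8 did. The replicate letter as a block changed 4 of 168 calls, Acadm in LD liver at ZT16-20 (lost, 0.061), Ppara in WT DD liver at CT16-20 (gained, -0.645, 0.042), Cpt1a by time in air in LD liver (lost, 0.057) and Ehhadh by genotype at CT4-8 (lost, 0.058). It moved the count of called genes to 2 in WT DD liver at CT16-20, to 1 for time in air in LD liver and to 1 for the genotype difference at CT4-8. Without the mouse block 0 of 28 tissue calls changed. The cause of these changes was not tested.

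With only the libraries compared, the count was 3 in LD liver at ZT16-20, 0 in kidney at ZT4-8, 0 in WT DD liver at CT4-8, 3 in WT DD liver at CT16-20 and 0 for genotype in air at CT4-8. DESeq2 called 2 in kidney at ZT4-8, 3 for time in air in kidney, 2 for time in air in lung, 0 for liver minus kidney at ZT4-8 and 2 at ZT16-20. The sign of Ppara by time in air in WT DD liver, near 0, was 0.00859 with RLE scaling, 0.0208 with no filter, 0.00953 with DESeq2 and 0.0492 with the replicate block. Without 2 kidney air libraries Acadm was -0.231 at ZT4-8, the time difference of Ehhadh was 0.0489, time in air was -0.117 for Acadm, -0.0357 for Acadl and -0.0254 for Ehhadh, and liver minus kidney at ZT4-8 had 0 calls. Without 3 lung air libraries the time difference of Ppara was -0.0551 and liver minus lung at ZT4-8 had 0 calls.

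Without 1 library or mouse, the count of called genes spanned 2 to 5 for LD liver ZT16-20, 0 to 2 for kidney ZT4-8, 1 to 2 for lung ZT4-8, 0 to 1 for WT DD liver CT4-8, 0 to 3 for KO DD liver CT4-8, 0 to 1 for KO DD liver CT16-20 and 0 to 1 for time difference, LD liver. It spanned 1 to 2 for time in air, LD liver, 0 to 1 for time in air, kidney, 1 to 2 for genotype difference, CT4-8, 0 to 1 for genotype in air, CT4-8, 0 to 3 for liver minus kidney ZT4-8, 0 to 1 for liver minus lung ZT4-8 and 1 to 2 for liver minus kidney ZT16-20. Log2 fold changes that changed sign, all of them uncalled, had these ranges. For Ppara the range was -0.119 to 0.0135 (kidney ZT16-20), -0.182 to 0.417 (time difference, lung), -0.214 to 0.15 (time difference, WT DD liver) and -0.22 to 0.144 (time in air, WT DD liver). Ppara also ran -0.086 to 0.0708 (time in air, KO DD liver), -0.415 to 0.0732 (genotype difference, CT4-8) and -0.0212 to 0.343 (genotype in air, CT4-8). For Cpt1a the range was -0.166 to 0.0436 (WT DD liver CT4-8), -0.122 to 0.11 (KO DD liver CT16-20), -0.0936 to 0.026 (time in air, KO DD liver) and -0.218 to 0.0139 (genotype difference, CT16-20). For Cpt2 the range was -0.11 to 0.0317 (kidney ZT16-20), -0.147 to 0.258 (KO DD liver CT16-20), -0.244 to 0.0123 (time difference, LD liver) and -0.082 to 0.182 (time difference, WT DD liver). Cpt2 also ran -0.00503 to 0.153 (time in air, kidney), -0.151 to 0.113 (time in air, WT DD liver), -0.138 to 0.114 (genotype in air, CT4-8) and -0.0353 to 0.18 (liver minus lung ZT4-8). Cpt2 also ran -0.15 to 0.324 (liver minus lung ZT16-20). For Acadm the range was -0.282 to 0.183 (lung ZT16-20), -0.00761 to 0.456 (WT DD liver CT4-8), -0.183 to 0.0603 (KO DD liver CT16-20) and -0.112 to 0.0292 (time difference, LD liver). Acadm also ran -0.0429 to 0.201 (time difference, KO DD liver), -0.12 to 0.0236 (time in air, LD liver), -0.0033 to 0.46 (time in air, WT DD liver) and -0.0444 to 0.199 (time in air, KO DD liver). Acadm also ran -0.239 to 0.223 (genotype in air, CT4-8) and -0.109 to 0.128 (liver minus kidney ZT16-20). For Acadl the range was -0.0712 to 0.0771 (kidney ZT4-8), -0.0505 to 0.0834 (kidney ZT16-20), -0.0585 to 0.0919 (time difference, kidney) and -0.217 to 0.104 (time difference, lung). Acadl also ran -0.0688 to 0.0881 (time in air, KO DD liver), -0.158 to 0.0302 (genotype difference, CT16-20), -0.0247 to 0.239 (genotype in air, CT4-8) and -0.136 to 0.0643 (liver minus lung ZT4-8). For Ehhadh the range was -0.255 to 0.0552 (kidney ZT4-8), -0.202 to 0.161 (WT DD liver CT16-20), -0.208 to 0.114 (time difference, LD liver) and -0.501 to 0.019 (time difference, lung). Ehhadh also ran -0.564 to 0.0462 (time in air, KO DD liver), -0.387 to 0.254 (genotype in air, CT16-20) and -0.64 to 0.104 (liver minus lung ZT16-20). For Angptl4 the range was -0.133 to 0.181 (kidney ZT4-8), -0.323 to 0.178 (kidney ZT16-20), -0.377 to 0.125 (time difference, kidney) and -0.293 to 0.113 (time in air, KO DD liver). Angptl4 also ran -0.371 to 0.0539 (genotype difference, CT16-20). With up to 4 libraries a group, a p that misses the threshold does not show that levels did not differ, and in lung the 4 to 28 reads of Ppara could show only large differences.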
